A study of Homo sapiens with 8 samples.

Results

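The replication licensing genes *ORC1*, *CDC6*, *CDT1*, *GMNN* and *MCM2* to *MCM7* were followed in human myeloma cells of the lines JJN3 and H929 that had received THZ1 or its vehicle, DMSO. They were chosen by name, and each symbol led to a single gene identifier, giving 10 genes of the 63677 in the count tables. The only measured value in the rule, a summed count to select between identifiers of one symbol, therefore decided nothing. The genes were selected with earlier results of these data known, so the number of them that moved is a description and not independent evidence of a direction.

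THZ1 is a covalent inhibitor of CDK7, the kinase that activates other cyclin-dependent kinases and phosphorylates the tail of RNA polymerase II. JJN3 and H929 are established human myeloma cell lines, both grown in the same serum-supplemented medium, and each stands for 1 line rather than for the disease. The 4 groups were JJN3 with DMSO, JJN3 with THZ1 at 50 nM, H929 with DMSO and H929 with THZ1 at 50 nM, all harvested at 24 h and all measured by RNA-seq in 2 libraries each. The labels do not say that the 2 libraries of a group came from separate cultures, so p-values measure the spread between these libraries, which may be technical. Libraries held 17476443 to 19194371 counts, and no spike-in is described in the sources used here, so every level is relative to the other RNA of its library.

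The labels of H929 did not hold up against the data. Lambda genes gave 99.99% and 98.9% of light-chain counts in the 2 libraries labelled H929 DMSO but 0.291% and 0.282% in the 2 labelled H929 THZ1. *FGFR3*, which the H929 translocation activates, had 45 and 285 counts in the DMSO libraries and 14117 and 13411 in the THZ1 libraries. The other line identity genes were *MAF*, *WHSC1*, *CCND1* and *CCND2*. *WHSC1* was higher in the THZ1 libraries too (6544 and 7026 counts against 15702 and 16276). *MAF* (18006 and 16310 against 2729 and 2942) and *CCND2* (13737 and 12324 against 8051 and 8178) were lower. *CCND1* was slightly lower (1766 and 1806 against 1540 and 1566). The 5 summed to 2093 to 2138 CPM (counts scaled to the library total) against 2286 to 2317. *ITGAM* had 607 and 463 counts against 0 and 0, and *SLAMF7* 2 and 174 against 8948 and 9173. Summed plasma cell markers ranged from 1762 to 1921 CPM against 7072 to 7160, with 7 and 8 of 8 markers above 3 counts in both libraries. Within that list *CD38* (1811 and 1654 counts against 1214 and 1171) and *MZB1* (6566 and 6892 against 3422 and 3216) were lower in the THZ1 libraries, while its other markers were higher. T and NK markers summed to 7.84 to 11.2 CPM against 211 to 216, myeloid markers to 26.1 to 33.4 against 0.325 to 0.438, and stromal and epithelial markers to 135 to 138 against 0.492 to 0.759. The T and NK list did not move as one. *NCAM1* (1 and 59 counts against 3246 and 3292) and *CD3E* (15 and 26 against 640 and 650) were higher in the THZ1 libraries. *CD8A* was lower (121 and 108 against 0 and 0), and *CD3D* and *GNLY* had at most 9 counts. B cell markers stayed at or under 0.922 CPM and erythroid markers at or under 0.488 CPM in all 4, and *CD22* and *MPO* were at 0 in every library. These libraries are called "labelled H929" throughout, and in them the treatment and whatever else separates the libraries cannot be told apart. JJN3 had 8 of 8 plasma cell markers above 3 counts in all 4 libraries and lambda shares of 0.255% to 0.411%. Its summed plasma cell markers were at 2089 to 2125 CPM with DMSO and 1387 to 1411 CPM with THZ1. Of these, *PRDM1* was higher with THZ1 (3377 and 3051 counts against 4011 and 3883), *CD38* overlapped, and the others were lower. Its line identity genes summed to 1508 to 1547 and 899 to 941 CPM. Of those, *MAF* (16305 and 16840 counts against 8873 and 10362) and *CCND2* (9281 and 9557 against 4007 and 3799) were lower with THZ1. *WHSC1* overlapped (3362 and 3123 against 2835 and 3231), and *FGFR3* and *CCND1* had at most 2 counts. The part of these differences in the results below was not tested. The tests of THZ1 against DMSO within JJN3 used no library labelled H929. The CPM of the licensing genes below are instead TMM-scaled (edgeR's scaling between libraries), so they are not on the scale of the marker sums. The scaling of the JJN3 levels was taken over all 8 libraries, so the libraries labelled H929 enter those levels.

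Licensing is the step of late mitosis and G1 that makes a replication origin competent to fire. The origin recognition complex, with ORC1 as a subunit, recruits CDC6, and CDT1 then delivers the MCM2-7 hexamer, which is loaded around DNA as the core of the replicative helicase. Geminin, encoded by *GMNN*, binds CDT1 in S and G2 phase and blocks loading a second time, and most of these genes are textbook targets of E2F transcription factors.

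The sequence around the annotated start is shown for 6 of the genes, because these include the strongest and the weakest responses described below and because promoter motifs of licensing genes are well known. Each stretch runs from 170 bases before the RefSeq start through the first 30 bases of the transcript (GRCh38.p14, gene strand, 5′ to 3′), and capitals mark E2F words.
CDC6 (chr17:40287709-40287908, plus strand): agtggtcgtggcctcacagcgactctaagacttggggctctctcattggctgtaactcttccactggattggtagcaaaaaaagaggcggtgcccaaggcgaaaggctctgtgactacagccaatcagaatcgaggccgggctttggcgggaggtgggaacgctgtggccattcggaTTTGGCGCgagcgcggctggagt
CDT1 (chr16:88803619-88803818, plus strand): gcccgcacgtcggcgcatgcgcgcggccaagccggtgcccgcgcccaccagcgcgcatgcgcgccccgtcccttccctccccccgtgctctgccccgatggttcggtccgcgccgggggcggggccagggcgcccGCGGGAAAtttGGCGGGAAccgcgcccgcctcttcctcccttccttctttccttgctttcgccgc
ORC1 (chr1:52404394-52404593, minus strand): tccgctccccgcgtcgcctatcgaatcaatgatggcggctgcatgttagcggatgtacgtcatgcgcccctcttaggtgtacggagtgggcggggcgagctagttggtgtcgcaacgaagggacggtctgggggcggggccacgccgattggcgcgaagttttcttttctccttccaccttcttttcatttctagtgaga
MCM2 (chr3:127598241-127598440, plus strand): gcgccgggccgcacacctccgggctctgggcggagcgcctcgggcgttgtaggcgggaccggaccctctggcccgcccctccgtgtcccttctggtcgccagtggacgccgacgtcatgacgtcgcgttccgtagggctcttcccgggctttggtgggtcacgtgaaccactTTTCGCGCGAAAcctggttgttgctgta
MCM3 (chr6:52284713-52284912, minus strand): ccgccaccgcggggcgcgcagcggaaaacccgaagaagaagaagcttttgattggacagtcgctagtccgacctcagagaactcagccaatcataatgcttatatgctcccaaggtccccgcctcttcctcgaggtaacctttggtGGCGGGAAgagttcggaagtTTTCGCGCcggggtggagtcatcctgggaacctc
MCM6 (chr2:135876414-135876613, minus strand): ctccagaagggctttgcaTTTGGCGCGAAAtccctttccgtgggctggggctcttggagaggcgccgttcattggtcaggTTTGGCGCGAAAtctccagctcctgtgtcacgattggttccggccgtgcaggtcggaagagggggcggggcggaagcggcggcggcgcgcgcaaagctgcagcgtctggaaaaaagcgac

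The 5 words were searched on both strands in windows of 250 bases before and 50 bases after each RefSeq start, namely TTTGGCGC, TTTCGCGC, TTTCCCGC and TTTGCCGC as a group, and GGCGGGAA alone. Windows were held for 8 of the 10 genes, and *MCM4* and *MCM5* had none in the table. The group of 4 words was found in 7 of these 8 genes, against 3.99% of all 27305 genes with a window, and GGCGGGAA in 2, *CDT1* and *MCM3*, against 3.79%. In *MCM6* the stretch TTTGGCGCGAAA occurs at 2 places, where a word on each strand overlaps, and *MCM2* holds the palindrome TTTCGCGCGAAA from base 3 of the transcript. *CDC6* has its word from base 8 and *CDT1* has one of each kind, 35 and 24 bases before the start. *ORC1* holds none of the 5 words in this window, which says only that these letters are not there, and *GMNN* holds one only in the window of its downstream start, 80 bases before it. The box CCAAT lay in 6 of the 8 genes, against 39.7% of all genes, and the cell cycle element TTTGAA in 0 of 8, against 18.2%. A match is a description of letters, not a bound site.

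**Figure D1:**
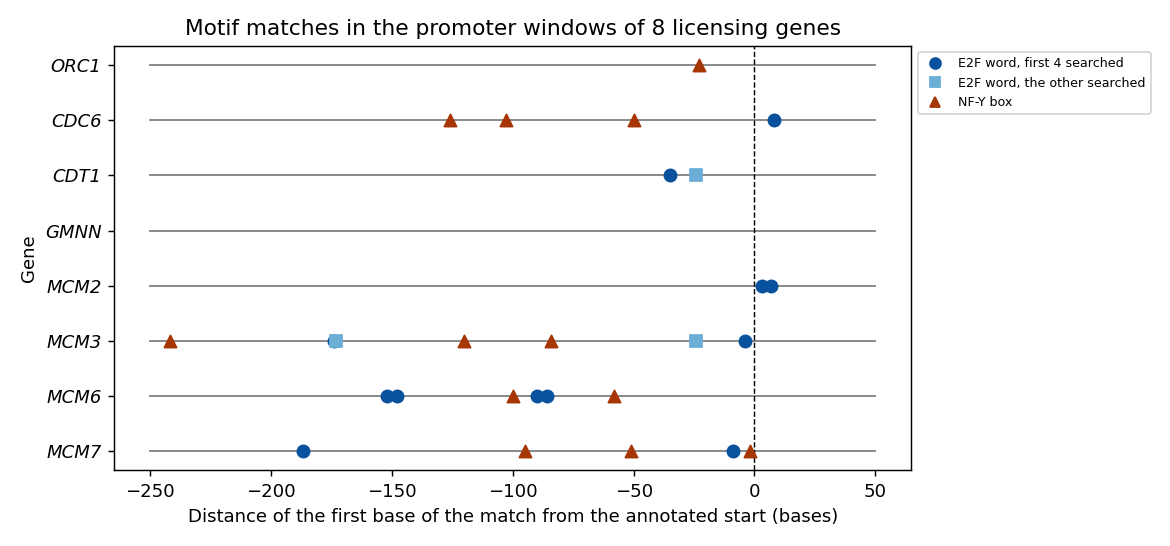
Position of motif matches in bases from the annotated start (dashed line) for the 8 licensing genes with a promoter window, taking the outermost start of each gene; circles and squares are E2F words and triangles NF-Y (CCAAT) boxes. Matches of the group of 4 E2F words are seen in every row but *ORC1* and *GMNN*, and *MCM6* has 2 pairs of overlapping circles.

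In JJN3, 7 of the 10 licensing genes fell with THZ1 and none rose. The loading factors *CDC6* and *CDT1* and the helicase subunit *MCM6* fell the furthest, to 0.457, 0.528 and 0.496 of their DMSO levels. *MCM2* and *MCM5*, which are subunits of the same hexamer as *MCM6*, were not called, and neither was *MCM7*. A gene was called at an adjusted p under 0.05 with a log2 fold change beyond 0.5 in the quasi-likelihood test of edgeR, where p was adjusted by the Benjamini-Hochberg method over the 13984 genes tested. Over those genes 21.3% were called lower and 20.6% higher. All 10 licensing genes passed the filter on low counts. Their median log2 fold change was -0.77, against -0.00036 over all genes tested, and the values ran from -1.13 to -0.10. In bulk RNA, fewer cells in a phase of the cycle and less RNA per cell cannot be told apart.

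*CDC6*, the ATPase that joins ORC at the origin (chromosome 17, 38444131 to 38460909, GRCh37), stood at 160 and 152 CPM in the JJN3 DMSO libraries and at 68.4 and 72.4 CPM in the THZ1 libraries. Both treated libraries were therefore below both controls by a wide margin. It fell by 54.3%, a log2 fold change of -1.13 (SE 0.080, n = 2 per group, edgeR adjusted p = 1.5e-06), and only 5.10% of the genes tested had a lower fold change.

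*CDT1*, which brings the MCM hexamer to the origin (chromosome 16, 88870197 to 88875666), had 58.8 and 58.6 CPM with DMSO and 30.3 and 31.0 CPM with THZ1. The pairs of replicates were nearly the same and the groups far apart. Its log2 fold change was -0.92 (SE 0.086, edgeR adjusted p = 7.57e-06). *GMNN*, the inhibitor of CDT1 (chromosome 6, 24775159 to 24786327), went from 163 and 173 CPM to 102 and 110 CPM. It was lower in both treated libraries, with a log2 fold change of -0.65 (SE 0.082, edgeR adjusted p = 5.64e-05). *ORC1*, the ORC subunit that is lost and remade with the cycle (chromosome 1, 52838501 to 52870095), had 155 and 158 CPM with DMSO and 92.8 and 93.1 CPM with THZ1. Its log2 fold change was -0.73 (SE 0.076, edgeR adjusted p = 1.47e-05).

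Per kilobase of exon, the CDT1 to GMNN ratio was 0.324 and 0.304 in the JJN3 DMSO libraries and 0.266 and 0.254 in the THZ1 libraries. The inhibitor's transcript thus exceeded that of its target in all 4 JJN3 libraries, with the canonical transcript as length too. The CDC6 to ORC1 ratio was 0.607 and 0.564 with DMSO and 0.433 and 0.456 with THZ1, the fall of *CDC6* being the deeper of the pair. These ratios are descriptions without a test.

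Among the helicase subunits, *MCM6* (chromosome 2, 136597196 to 136634013) had 373 and 391 CPM with DMSO and 184 and 191 CPM with THZ1. The groups were well apart, and the gene fell by 50.4%, a log2 fold change of -1.01 (SE 0.083, edgeR adjusted p = 3.34e-06). *MCM3* (chromosome 6, 52128812 to 52149679), the most abundant of the 10 per kilobase in JJN3, had 1135 and 1216 CPM against 632 and 690 CPM. Its log2 fold change was -0.82 (SE 0.102, edgeR adjusted p = 5.06e-05). *MCM4*, on chromosome 8, had 776 and 764 CPM against 421 and 451 CPM, a log2 fold change of -0.80 (SE 0.092, edgeR adjusted p = 2.75e-05).

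The other subunits moved less. *MCM7* (chromosome 7, 99689856 to 99699563) had 574 and 628 CPM with DMSO and 467 and 442 CPM with THZ1. It passed the test but not the limit on size, at a log2 fold change of -0.39 (SE 0.093, edgeR adjusted p = 0.0040). *MCM5* (chromosome 22, 35796127 to 35821424) had 244 and 261 CPM against 240 and 216 CPM, with a gap between the groups smaller than the spread within either. Its log2 fold change was -0.13 (SE 0.088, edgeR adjusted p = 0.214). *MCM2* (chromosome 3, 127317253 to 127341279) had 419 and 448 CPM against 408 and 393 CPM, a log2 fold change of -0.10 (SE 0.087, edgeR adjusted p = 0.352). For *MCM2* and *MCM5*, both treated libraries thus lay below both controls without a difference beyond the replicate error. How often groups of 2 libraries separate in this way over all genes was not counted. In the GENCODE annotation used here, 23.6% of the exon bases of *MCM2* lie opposite a long non-coding RNA and 7.90% of those of *MCM7* opposite *AP4M1*. This may differ from the annotation that the reads were counted on. Whether counting used strand is not given in the sources used here, so reads there cannot be assigned to one strand.

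**Figure D2:**
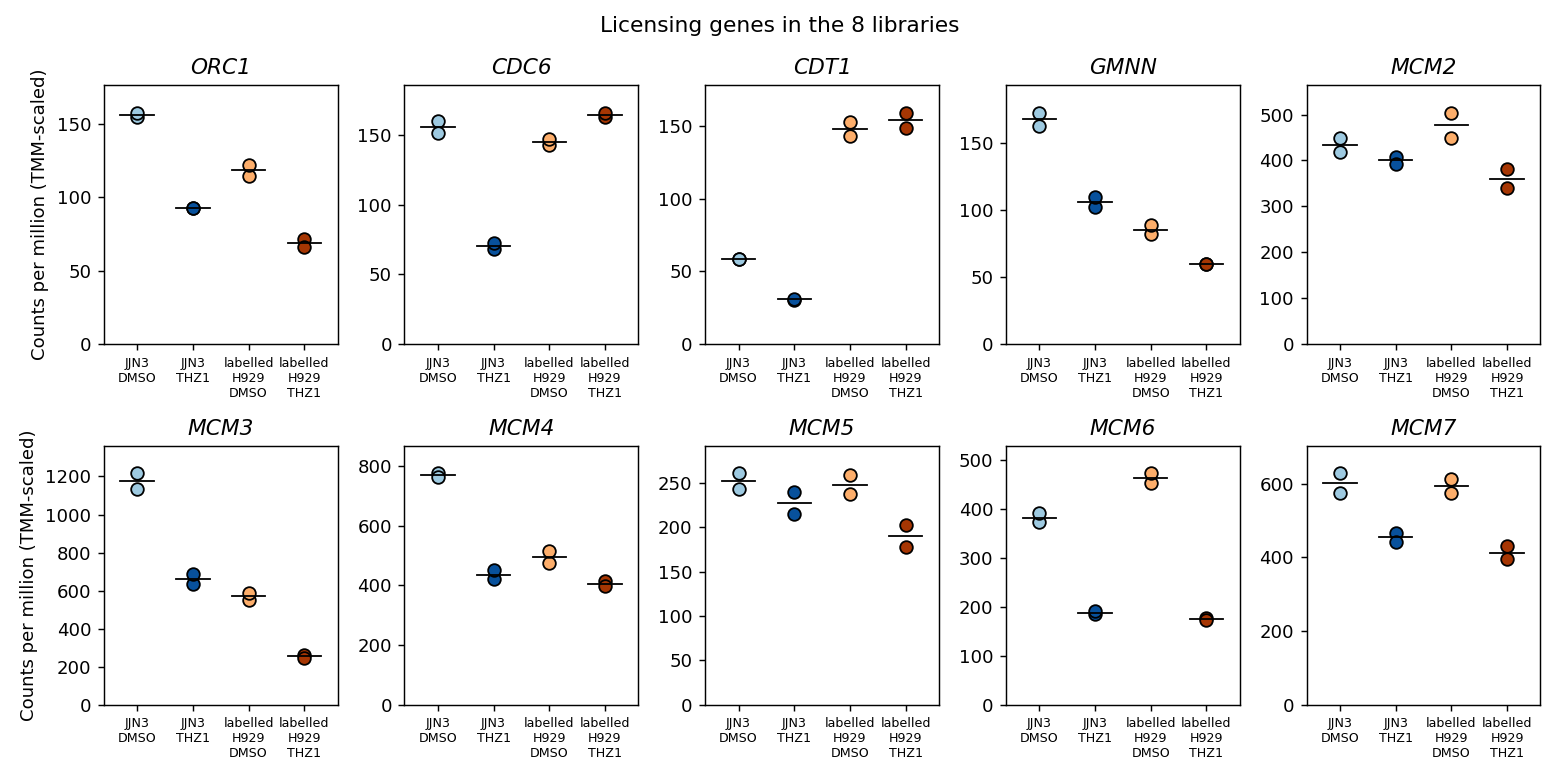
Level of each licensing gene in CPM after TMM scaling (y axis, from 0) in the 4 groups; each point is a library and each line the mean of 2. In JJN3 all 10 genes are lower with THZ1, from *CDC6* (152 to 160 CPM down to 68.4 to 72.4) to *MCM2*, whose groups nearly touch. Of the 13984 genes tested in JJN3, 6998 had a fold change below 0.

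The hexamer holds its 6 subunits in equal number, which makes their relative transcript levels of interest. Summed over *MCM2* to *MCM7*, the level per kilobase of exon was 718 and 763 CPM per kilobase in the JJN3 DMSO libraries and 475 and 483 in the THZ1 libraries. *MCM3* made up 43.5% ± 0.256 (SD, n = 2) of this sum with DMSO and 37.9% ± 1.85 with THZ1. *MCM2* went from 12.4% ± 0.0655 to 17.7% ± 0.716 and *MCM6* from 12.5% ± 0.108 to 9.46% ± 0.0994. *MCM2* and *MCM6* had overlapping shares with DMSO and shares well apart with THZ1. With the canonical transcript as length, *MCM3* was at 34.3% and 29.1%, *MCM2* at 11.3% and 15.8%, and *MCM6* at 9.11% and 6.75%, so the shifts kept their direction but *MCM2* and *MCM6* were apart with DMSO too. The ratio of the most to the least abundant subunit was 9.28 and 9.29 with DMSO and 5.25 and 6.38 with THZ1 per kilobase of exon, but 5.25 in both DMSO libraries and 4.19 and 4.43 with THZ1 with the canonical transcript.

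**Figure D3:**
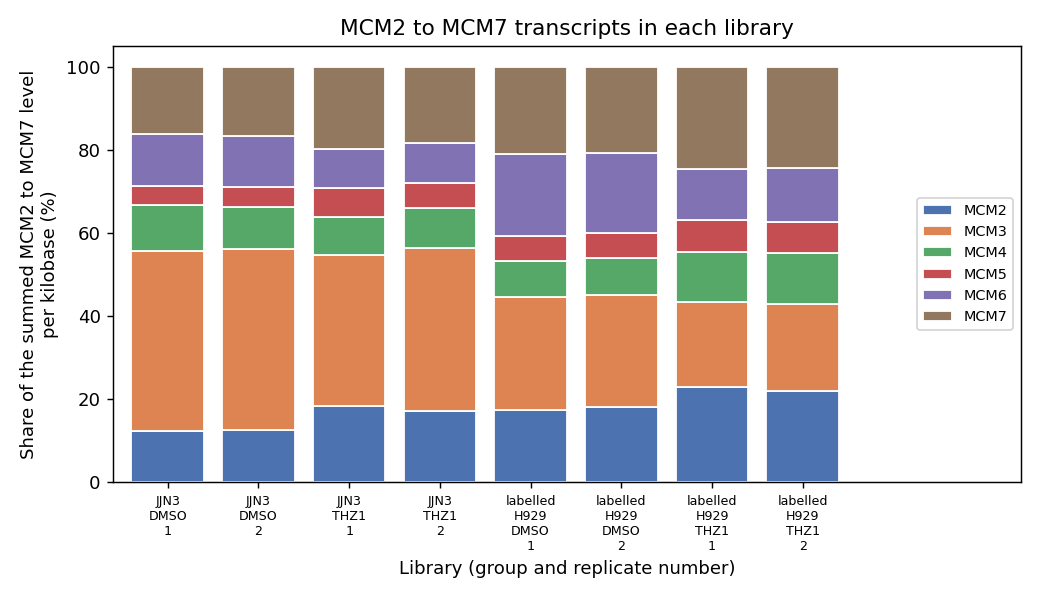
Share (%) of each subunit in the summed *MCM2* to *MCM7* level per kilobase of exon, one bar per library with its replicate number. *MCM3* takes 43.3% to 43.7% of the bar in JJN3 DMSO, 36.5% to 39.2% in JJN3 THZ1, and 27.4% or less in the libraries labelled H929.

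In order of level per kilobase, JJN3 DMSO ran from *MCM3* (322 ± 15.7 CPM per kilobase, SD, n = 2) through *MCM7* (121 ± 7.63), *MCM6* (92.4 ± 3.17), *MCM2* (91.9 ± 4.43), *MCM4* (78.2 ± 0.817), *GMNN* (67.8 ± 2.83), *ORC1* (50.1 ± 0.727), *MCM5* (34.7 ± 1.67) and *CDC6* (29.3 ± 1.09) to *CDT1* (21.3 ± 0.0594). Of these neighbours, *MCM6* and *MCM2* had overlapping replicates. With THZ1 in JJN3, *MCM3* (181 ± 11.1), *MCM7* (91.7 ± 3.55) and *MCM2* (85.0 ± 2.36) led, and *CDC6* (13.3 ± 0.521) and *CDT1* (11.1 ± 0.194) stayed last. There *MCM6* overlapped *MCM4*, *MCM4* overlapped *GMNN* and *MCM5* overlapped *ORC1*. The order between genes depends on the length used: with the canonical transcript *MCM4* moved up to 190 and *GMNN* to 133 CPM per kilobase in JJN3 DMSO, while *MCM3* stayed first and *CDT1* last.

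In the libraries labelled H929, 5 of the 10 genes were lower in the THZ1 libraries and none higher, against 32.6% lower and 33.1% higher over the 14863 genes tested. The number was 3 with DESeq2, with DESeq2 size factors, with total counts and without DMSO replicate 2, since *MCM7* and *GMNN* lie close to the limit of 0.5. *MCM6* and *MCM3* were the furthest down and *CDC6* and *CDT1* were not called. The median log2 fold change was -0.45, against 0.014 over all genes tested. The light-chain and *FGFR3* differences given above move with this comparison, and their part in it cannot be told apart from the treatment.

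*MCM6* had 452 and 472 CPM in the DMSO libraries labelled H929 and 178 and 174 CPM in the THZ1 libraries. The groups were far apart, with a log2 fold change of -1.39 (SE 0.053, edgeR adjusted p = 9.08e-13). *MCM3* had 551 and 588 CPM against 263 and 247 CPM, a log2 fold change of -1.16 (SE 0.057, edgeR adjusted p = 2.14e-11). *ORC1* had 115 and 122 CPM against 71.6 and 65.9 CPM, a log2 fold change of -0.78 (SE 0.062, edgeR adjusted p = 8.52e-09), close in size to that in JJN3. *MCM7* had 574 and 612 CPM against 430 and 396 CPM (log2 fold change -0.52, SE 0.059). *GMNN* had 82.2 and 88.7 CPM against 59.5 and 60.0 CPM (log2 fold change -0.51, SE 0.064). Both of these genes had non-overlapping groups and a fold change just past the limit.

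The loading factors stood apart from the other genes in these libraries. *CDC6* had 143 and 147 CPM in the DMSO libraries labelled H929 and 163 and 166 CPM in the THZ1 libraries. The treated libraries were the higher ones, with a log2 fold change of 0.19 that passed the test but not the limit on size (SE 0.052, edgeR adjusted p = 0.0033). *CDT1* had 143 and 153 CPM against 159 and 149 CPM, so that its groups overlapped, with a log2 fold change of 0.06 (SE 0.057, edgeR adjusted p = 0.335). *MCM2* (449 and 504 CPM against 381 and 340), *MCM5* (238 and 259 against 203 and 178) and *MCM4* (475 and 516 against 414 and 399) were lower in both THZ1 libraries but within the limit on size, at log2 fold changes of -0.40, -0.38 and -0.28.

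**Figure D4:**
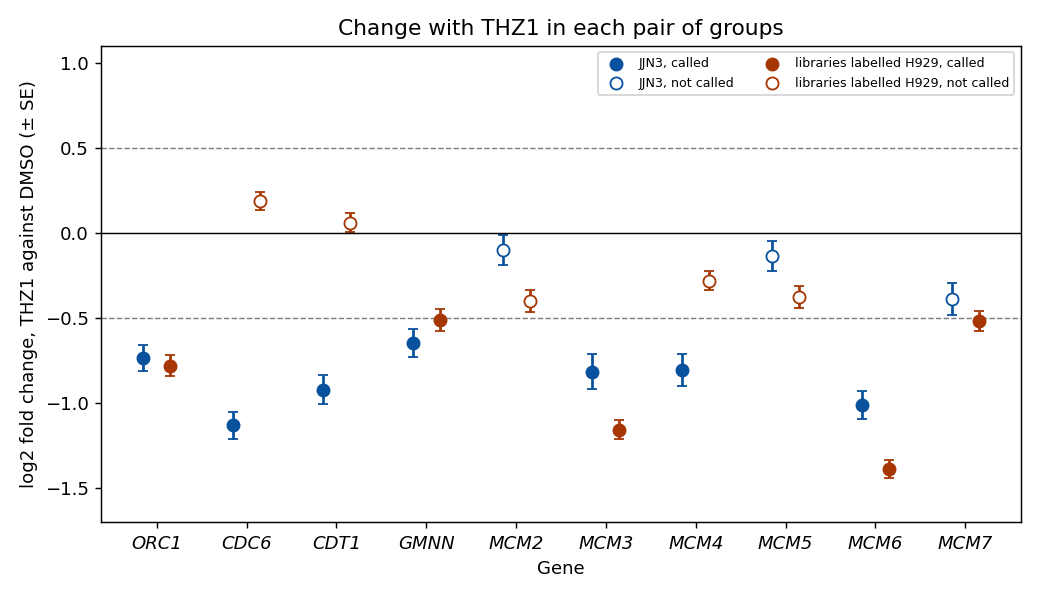
Log2 fold change of THZ1 against DMSO with its SE for each licensing gene, in blue for JJN3 and in brown for the libraries labelled H929; filled points were called and dashed lines mark the limit of 0.5. *CDC6* is at -1.13 (blue) and 0.19 (brown), and *CDT1* at -0.92 and 0.06, while *ORC1* is at -0.73 and -0.78.

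Whether the responses differed was tested by an interaction term fitted to the 8 libraries together, as the log2 fold change in JJN3 minus that in the libraries labelled H929. It was called for 3 of the 10 genes, against 53.7% of the 16122 genes tested. *CDC6* differed by -1.33 (SE 0.096, edgeR adjusted p = 5.76e-09), *CDT1* by -0.99 (SE 0.104, edgeR adjusted p = 4.59e-07) and *MCM4* by -0.53 (SE 0.103, edgeR adjusted p = 0.00028). *MCM4* sat near the limit, at -0.49 without H929 DMSO replicate 1 and at -0.500, just inside it, without JJN3 THZ1 replicate 1. For *ORC1* (0.04, SE 0.100), *MCM7* (0.12, SE 0.108) and *GMNN* (-0.15, SE 0.103) the test was not passed. *MCM6* (0.37), *MCM3* (0.33) and *MCM2* (0.29) passed it at edgeR adjusted p of 0.0030, 0.0152 and 0.0355 but not the limit on size, and *MCM5* (0.24) did not pass it. No value of the interaction can be had without the libraries labelled H929, and the doubt about them holds for each.

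Between the lines, *CDT1* and *GMNN* differed in opposite directions with the vehicle alone. With DMSO, *MCM3*, *MCM4* and *GMNN* were higher in JJN3 than in the libraries labelled H929 and *CDT1* was lower, 3 and 1 of 10 against 30.7% and 30.8% of all genes tested. *CDT1* differed by a log2 fold change of -1.34 (SE 0.072, edgeR adjusted p = 6.92e-11) and *GMNN* by 0.97 (SE 0.072, edgeR adjusted p = 3.62e-09). *MCM3* differed by 1.05 and *MCM4* by 0.64. The CDT1 to GMNN ratio per kilobase was accordingly 1.56 and 1.55 in the DMSO libraries labelled H929, against 0.324 and 0.304 in JJN3, and 2.40 and 2.22 in the THZ1 libraries labelled H929. With the canonical transcript as length *GMNN* (67.7 CPM per kilobase) stood above *CDT1* (55.6) in those DMSO libraries, so only the order between JJN3 and labelled H929, not the side of 1, is independent of the length. With THZ1, *MCM3* (1.38) and *GMNN* (0.83) were higher in JJN3, and *CDT1* (-2.33) and *CDC6* (-1.23) lower, 2 and 2 of 10 against 32.3% and 31.6%. *MCM2*, *MCM5*, *MCM6*, *MCM7* and *ORC1* were called in neither, with *ORC1* inside the limit on size at 0.40 with DMSO and 0.44 with THZ1. The lines were counted in separate tables, so line and whatever else separates the tables cannot be told apart, and these comparisons share libraries with those of THZ1.

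The order of levels per kilobase also differed. In the DMSO libraries labelled H929 it ran from *MCM3* (156 ± 7.27 CPM per kilobase) through *MCM7* (120 ± 5.45), *MCM6* (112 ± 3.48), *MCM2* (101 ± 8.18), *CDT1* (53.7 ± 2.52), *MCM4* (50.3 ± 2.93), *ORC1* (38.0 ± 1.68), *GMNN* (34.5 ± 1.87) and *MCM5* (34.2 ± 2.10) to *CDC6* (27.3 ± 0.627), with *CDT1* and *MCM4*, and *GMNN* and *MCM5*, overlapping. In the THZ1 libraries *MCM7* (83.3 ± 4.83), *MCM2* (76.4 ± 6.21) and *MCM3* (69.8 ± 3.12) led and neighbours among them overlapped, *CDC6* (31.0 ± 0.375) stood in the seventh place and *ORC1* (22.03 ± 1.28) was last. Here the share of *MCM6* in the summed subunit level was 19.5% ± 0.394 with DMSO and 12.5% ± 0.487 with THZ1, and that of *MCM2* 17.6% ± 0.523 and 22.5% ± 0.617.

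As a share of all counts, the 10 genes together took 0.408% and 0.435% in JJN3 DMSO, 0.248% and 0.262% in JJN3 THZ1, 0.319% and 0.346% in the DMSO libraries labelled H929 and 0.240% and 0.225% in the THZ1 libraries. Over the 8 libraries, the genes whose log2 CPM went most with that of the other 9 were *MCM7* (Pearson r = 0.95), *MCM6* (0.91) and *ORC1* (0.89), and the least *CDT1* (-0.16) and *CDC6* (0.36). These correlations span 4 groups that share libraries and line differences and are given without a test. Of the 9217 genes outside the lists whose average log2 CPM was 3 or more, those with the pattern most like the mean of the 10 were *MAGOH* (r = 0.995), *ADSL* (0.993), *PFDN6* (0.992), *ERI3* (0.991), *RPP40* and *TMEM216* (both 0.990), *NOB1* (0.989), *COIL* (0.989), *COA4* (0.988) and *DHX34* (0.988).

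The other genes of origin licensing and DNA synthesis were taken from 4 lists of 67 genes in all, every one of which was tested. In JJN3, 29 of the 67 (43.3%) fell and 1 (1.49%) rose, against 21.3% and 20.6% of all genes tested, with a median log2 fold change of -0.42. For labelled H929, 18 (26.9%) were lower and 8 (11.9%) higher, both below the 32.6% and 33.1% of all genes tested, with a median of -0.11.

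Of the 11 relatives of ORC and the MCM proteins, 7 (63.6%) fell in JJN3 and none rose, against 21.3% and 20.6% of all genes tested. *ORC3* was the furthest down (log2 fold change -1.23, SE 0.078), followed by the initiation factor *MCM10* (-0.81) and *ORC2* (-0.78). Of the other partners of ORC1, *ORC5* (-0.51, SE 0.093) was called and *ORC6* (-0.48, SE 0.096) was not, the limit of 0.5 lying between values of like size. *ORC4* had a log2 fold change of 0.36 and was not called. *MCM8* (-0.71), a helicase of recombination, and *MCMBP* (-0.69), which binds free MCM subunits, fell, and *MCM9* (0.27) was not called. Among libraries labelled H929, *MCM8* (-1.15) and *MCM10* (-0.55) were lower and *MCM9* (1.05) was higher, while *ORC2* (-0.11), *ORC3* (0.25), *ORC4* (0.08), *ORC5* (-0.32), *ORC6* (-0.11) and *MCMBP* (-0.26) were not called. The 2 lower and 1 higher of 11 (18.2% and 9.09%) lie below the 32.6% and 33.1% of all genes tested. The response of *ORC3* to THZ1 in JJN3 minus that in labelled H929 was -1.49 on the log2 scale (edgeR adjusted p = 2.1e-09), the lowest of the 11. In that test 4 of the 11 (36.4%) were called below 0 and 1 (9.09%) above 0, against 28.1% and 25.5% of all genes tested.

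Of the 14 genes that turn the loaded hexamer into an active helicase, 6 (42.9%) fell in JJN3 and none rose, against 21.3% and 20.6% of all genes tested. All 14 had a value below 0, as did 6998 of the 13984 genes tested. CDC45 and the GINS complex join MCM2-7 in that helicase. *GINS1* (-1.11, SE 0.083), *CDC45* (-1.10, SE 0.083), *GINS4* (-1.09, SE 0.106) and *GINS3* (-0.77) fell, and *GINS2* (-0.48) was not called. In the libraries labelled H929, 4 were lower, led by *GINS3* (-1.17), *GINS1* (-0.88) and *TICRR* (-0.68), and 2 were higher, *CDC45* (0.98, SE 0.077) and *MTBP* (0.59). These shares, 28.6% and 14.3%, lie below the 32.6% and 33.1% of all genes tested, and *GINS2* (0.13) and *GINS4* (0.47) were not called. The response of *CDC45* in JJN3 minus that in labelled H929 was -2.10 (edgeR adjusted p = 1.3e-10), the lowest of the 14. By that test 7 of the 14 (50%) were called below 0 and 1 (7.14%) above 0, against 28.1% and 25.5% of all genes tested.

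Of the 14 genes of CDK and degradation control, 4 (28.6%) fell in JJN3, against 21.3% of all genes tested, led by *CCNE1* (-0.88) and *CCNE2* (-0.78), which encode E-type cyclins, and *CDK2* (-0.70), their kinase. *USP37*, a deubiquitinase, rose (0.54), 1 of 14 (7.14%) against 20.6%. *DTL* and *SKP2*, which mark CDT1 for degradation, had log2 fold changes of -0.39 each and were not called. With H929 labels, *CCNE1* was higher (1.53, SE 0.081), as were *FZR1* (0.91), an activator of the anaphase-promoting complex, and *SETD8* (0.69). *CUL1* (-0.80), *CUL4A* (-0.59) and *SKP1* (-0.51), subunits of ubiquitin ligases, were lower, and *DTL* (-0.25) and *SKP2* (0.09) were not called. These are 3 of 14 (21.4%) in each direction, below the 32.6% lower and 33.1% higher of all genes tested. The response of *CCNE1* in JJN3 minus that in labelled H929 was -2.41 (edgeR adjusted p = 1.7e-09), the lowest of the 14. There 4 of the 14 (28.6%) were called below 0 and 2 (14.3%) above 0, against 28.1% and 25.5% of all genes tested.

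Of the 28 replisome genes, 12 (42.9%) fell in JJN3 and none rose, against 21.3% and 20.6% of all genes tested. *PRIM1* (-1.66, SE 0.091) and *POLA2* (-1.27, SE 0.078), of the primase and polymerase alpha complex, and *RFC4* (-1.15, SE 0.098), of the clamp loader, fell the furthest. Between the H929-labelled groups, 9 were lower, led by *RPA3* (-2.03), *PCNA* (-1.75), the sliding clamp, and *POLD1* (-1.48), and 2 were higher, *POLD4* (1.23) and *POLE* (0.69). The 32.1% lower is near the 32.6% of all genes tested and the 7.14% higher below the 33.1%.

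**Figure D5:**
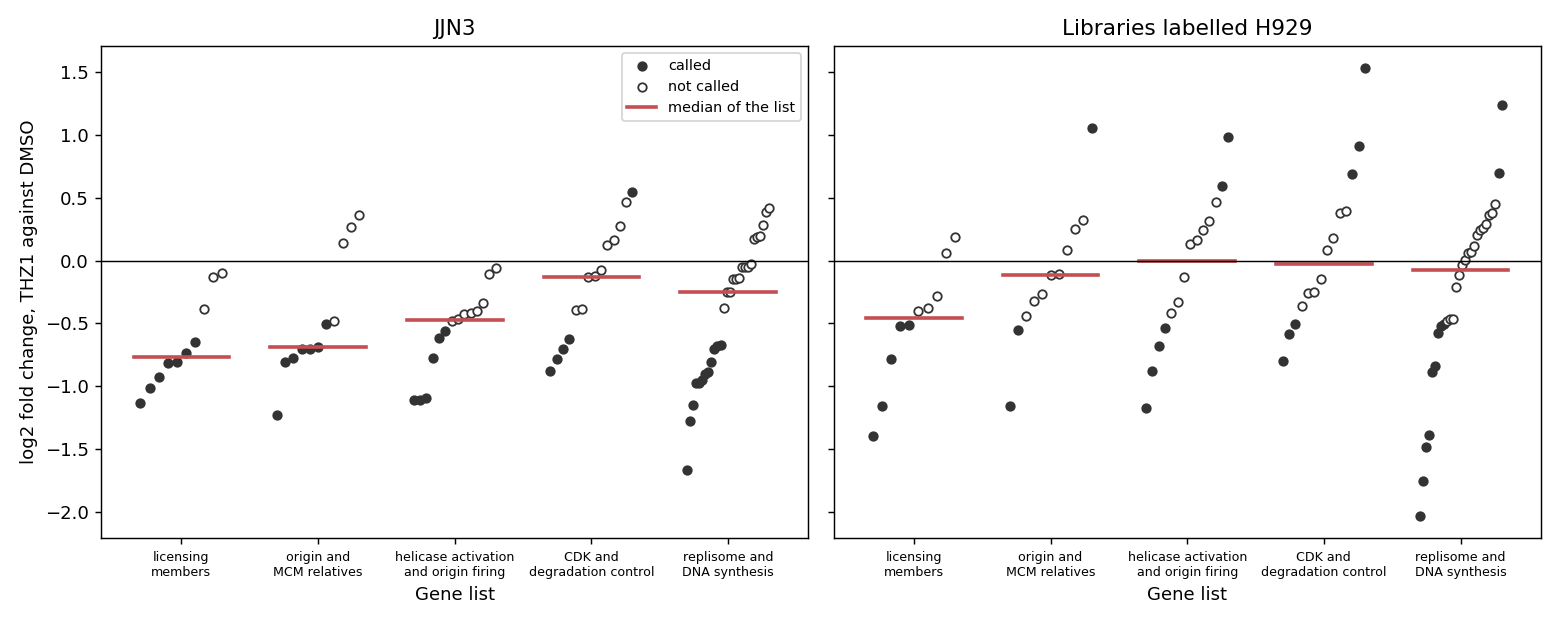
Log2 fold change of THZ1 against DMSO for each gene (points, filled where called) of the licensing genes and the 4 pathway lists, with JJN3 on the left and labelled H929 on the right, with the median of each list in red. In JJN3 the medians are -0.77 for the licensing genes and -0.69, -0.47, -0.13 and -0.25 for the lists, and on the right the lists' medians lie between -0.11 and -0.0030.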

How the data were processed

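Published RNA-seq data of JJN3 and H929 cells (DMSO or THZ1, 2 libraries per group) were used. Per the labels and the study's methods, the authors aligned single-end reads to hg19 with STAR (2.5.2a, uniquely mapped reads) and counted them per Ensembl gene with featureCounts. The deposited values used were these raw counts, in one table per line. The authors' DESeq2 (1.12.4) columns of fold changes and p-values were not used, apart from the column that gives gene symbols.

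Counts were TMM-scaled and tested with edgeR (4.0.16) in R (4.3.3) using its quasi-likelihood test, after filterByExpr, with Benjamini-Hochberg adjustment over all genes. The SE of a log2 fold change is its absolute value divided by the square root of the test's F statistic. It is thus derived from the test and is not a separate estimate of spread. THZ1 was compared with DMSO within each table, and the interaction and the comparisons between lines were fitted over all 8 libraries. Levels are TMM-scaled CPM over all 8 libraries, and levels per kilobase divide these by the union of annotated exons in the GENCODE annotation of GRCh37. The count tables hold no gene length. The release of the Ensembl annotation that the authors counted on is not given in the sources used here. Its exons may differ from those used for the lengths. Promoter windows came from RefSeq (GRCh38.p14). The code was tested on simulated data. With 17476443 to 19194371 counts per library, a count of 3 corresponds to 0.156 to 0.172 CPM.

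The members, gene lists and tests were chosen with earlier results of these data known. Named were all 10 members, their direct partners and, in each list and direction, the 3 called genes with the largest change, plus the 10 genes most like the members. Replicates differed by more than sampling noise (chi-square per degree of freedom of 4.26 to 17.9). Alternatives were DESeq2 (1.42.0), other scalings, filters and limits, a replicate block and leaving out each library. An exon length of the canonical transcript was added after seeing the data.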

Additional observations from a re-analysis of the deposited data

Results flagged for a closer look

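The response to THZ1 of 3 licensing genes differed between JJN3 and the libraries labelled H929 by a test of the difference itself, the interaction in edgeR's quasi-likelihood fit over 8 libraries. The log2 fold change in JJN3 minus that in the libraries labelled H929 was -1.33 for *CDC6*, -0.99 for *CDT1* and -0.53 for *MCM4*. Of all genes tested, 53.7% were called in the same test. The libraries labelled H929 differ in light-chain class and *FGFR3* between DMSO and THZ1, and the part of this in the differences cannot be told apart from the treatment. No group has the 4 libraries that a test for a single outlying library needs.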

How the results depend on the processing

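Of the summary results, 177 of 209 alternative values stayed within 1.5 times of the count or 1 SD of the value, and none changed direction. In JJN3 the number of licensing genes called lower was 7 in every alternative that kept the limits and 7 without any one library, 8 with no limit and 2 with a limit of 1. Their median log2 fold change was -0.87 with total counts, a scaling that moved the median of all genes to -0.10 there and to -0.18 in the difference between lines. With DESeq2 these medians, taken there over every gene with a count, were 0.17 and 0.15. Pathway genes lower were 7 with a limit of 1. Pathway genes higher were 0 with total counts, no filter or a limit of 1, 6 with no limit on the fold change, and 1 to 2 without one library.

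In the libraries labelled H929, members lower were 3 with DESeq2, DESeq2 size factors or total counts, 8 with no limit, 2 with a limit of 1 and 3 to 5 without one library, the 3 being without DMSO replicate 2. Members higher were 1 with no limit. Their median ran from -0.53 to -0.37 without one library. Pathway genes lower were 31 with no limit and 6 with a limit of 1, and higher 23 and 3. Members differing between the lines were 6 with no limit and 1 with a limit of 1. With DMSO, members lower in JJN3 were 2 with no limit, and higher 1 with a limit of 1. With THZ1, members higher in JJN3 were 4 and 1. The median level per kilobase in JJN3 DMSO was 73.0, and 74.1 with total counts, 71.9 with DESeq2 size factors and 114 with the canonical length.

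Signs reversed only for values that were not called. For the difference between lines these were *MCM7* (-0.025 with total counts) and *ORC1* (-0.106 with total counts, -0.046 with no filter, -0.046 to 0.074 without one library). For JJN3 against labelled H929 with DMSO they were *MCM5* (-0.033 to 0.089) and *MCM7* (-0.034 to 0.092) without one library. With THZ1 they were *MCM4* (-0.012) and *MCM6* (-0.021) with total counts. The cause was not tested.

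Replicate numbers only name the libraries: same-numbered libraries deviated together with a correlation of -0.014 in JJN3 and -0.033 in those labelled H929. With the replicate block, 7 and 0 members were lower and higher in JJN3 and 5 and 0 in the libraries labelled H929, and 3 differed between lines. With 2 libraries per group the spread rests on few values, and with no spike-in described a change of all RNA together would not show in these levels.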
